A study of Mus musculus with 2 samples.

Results

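The genes described here are 9 mouse genes that mark lymphocytes leaving tissue through blood or lymph or staying in it, out of 32285 genes counted. Klf2, S1pr1, S1pr5 and Ccr7 form the egress side and Itgae, Itga1, Cd69, Cxcr6 and Zfp683 the residency side. They are a listed set, and all 9 were found by symbol. The data are 2 single-cell RNA-seq libraries of CD45+ cells, which are leukocytes, from the retinal pigment epithelium and choroid. Both groups had received NaIO3, an oxidant that damages the retinal pigment epithelium, at 20 mg/kg into the peritoneum. One library is labelled IL-17ra fl, for the floxed receptor gene, and is called flox here, and the other IL-17RA CKO, called knockout here. The labels do not name the Cre driver or the cells it acts in.

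A lymphocyte leaves tissue by following sphingosine 1-phosphate, which is abundant in blood and lymph, through the receptors S1pr1 and, in natural killer (NK) cells and effector T cells, S1pr5. Klf2 is a transcription factor that drives S1pr1 transcription, and the Cd69 protein binds S1pr1 and takes it off the cell surface. Ccr7 is the chemokine receptor that guides naive and central memory cells to lymphoid tissue. Resident lymphocytes carry integrins that hold them in place, Itgae (the CD103 chain, a partner of E-cadherin) and Itga1 (CD49a, which binds collagen), the chemokine receptor Cxcr6, and Zfp683 (Hobit), a transcription factor of resident T cells.

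Cells were taken with at least 1000 unique molecular identifiers (UMIs, each 1 counted RNA molecule) and less than 10% mitochondrial UMIs, 3420 in flox and 3982 in knockout, and were gated on raw UMIs. CD8 T cells, with at least 2 UMIs of Cd3d and Cd3e and 1 of Cd8a and Cd8b1, numbered 670 and 1051. They were split by Klrg1, a marker of effector cells, and Pdcd1, which encodes PD-1. Klrg1 cells without Pdcd1 numbered 28 and 171, Pdcd1 cells without Klrg1 264 and 391, and cells with neither 360 and 466, while 18 and 23 cells with both are not described further. Cd4 T cells numbered 336 and 274, T cells with the gamma-delta T cell gene Cd163l1 100 and 74, NK cells (Ncr1 without Cd3d and Cd3e) 211 and 276, and B cells (Cd79a) 632 and 1007. Cells with Csf1r, a monocyte and macrophage gene, 756 and 664 in number, served as a gate that should lack T cell genes.

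With 1 library per group the design holds no replicate, so differences have no replicate check and no p-value. The libraries were also counted with different Cell Ranger versions, 4 for flox and 7.0.1 for knockout. Genotype and counting version therefore cannot be told apart in any knockout over flox ratio. Levels are CPM of the gate's summed UMIs, and intervals are at 95% and cover counting error alone. A ratio was called when its interval lay wholly beyond 1.5-fold in either direction and the gene had at least 20 UMIs in both groups together. The libraries held 38623933 UMIs in flox and 35944330 in knockout, with median depths of 8741.5 and 7714 UMIs per cell, and they shared 3 cell barcodes. Both libraries mixed cells of both sexes, 65.7% female and 15.7% male in flox against 39.3% and 34.6% in knockout by Xist and Y-linked UMIs, so genotype comparisons are also given within each sex. Il17ra, the targeted gene, stood at 72.7 and 82.4 CPM in flox and knockout CD8 T cells and at 252 and 251 in Csf1r cells, so these 3' counts showed no loss of it there. The gates carried the genes of their names. Trdc, the constant gene of the delta receptor chain, reached 1924 and 1893 CPM in Cd163l1 cells against 7.01 and 12.8 in CD8 T cells, and Cd40lg 281 and 376 in Cd4 T cells against 9.24 and 26.8. In the CD8 T gate, 4 flox and 24 knockout cells also met the B gate, and 12 and 13 the Cd163l1 T gate. Of Cd4 T cells, 7 and 3 also met the Cd163l1 T gate.

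The 9 genes lie, in mm10 with GENCODE vM21, at chr8:72319033-72321656 on the plus strand (Klf2), chr3:115710433-115715072 minus (S1pr1), chr9:21242912-21248443 minus (S1pr5), chr11:99144196-99155077 minus (Ccr7), chr11:73090583-73147446 plus (Itgae), chr13:114953096-115101964 minus (Itga1), chr6:129267325-129275436 minus (Cd69), chr9:123806475-123811760 plus (Cxcr6) and chr4:134053838-134058996 plus (Zfp683). Itga1 overlaps Pelo on the same strand, so reads in that stretch are uncertain. Itgae and Cxcr6 overlap Haspin and Fyco1 on the opposite strand.

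The promoters of 4 of the 9 genes were found in the RefSeq table (GRCm38.p6). They are shown because these genes met or avoided each other in single cells in the results that follow. Each runs 5′ to 3′ on the gene's strand from 250 to 31 bases before the RefSeq start, with CACCC or its reverse complement GGGTG in capitals, letters at the core of motifs bound by Klf-family factors. Klf2 is read from chr8:72318812-72319031 (plus), S1pr5 from chr9:21248474-21248693 (minus), Itga1 from chr13:115101995-115102214 (minus) and Cxcr6 from chr9:123806227-123806446 (plus).
Klf2: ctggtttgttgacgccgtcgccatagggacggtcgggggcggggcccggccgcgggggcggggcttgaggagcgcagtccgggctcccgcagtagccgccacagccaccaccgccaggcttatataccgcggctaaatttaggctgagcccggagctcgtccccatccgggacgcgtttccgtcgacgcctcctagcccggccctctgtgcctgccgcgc
S1pr5: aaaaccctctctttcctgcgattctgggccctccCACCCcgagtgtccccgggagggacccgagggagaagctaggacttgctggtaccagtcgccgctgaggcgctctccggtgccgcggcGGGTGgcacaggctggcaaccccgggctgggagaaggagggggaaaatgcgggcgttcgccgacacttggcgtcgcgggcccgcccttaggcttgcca
Itga1: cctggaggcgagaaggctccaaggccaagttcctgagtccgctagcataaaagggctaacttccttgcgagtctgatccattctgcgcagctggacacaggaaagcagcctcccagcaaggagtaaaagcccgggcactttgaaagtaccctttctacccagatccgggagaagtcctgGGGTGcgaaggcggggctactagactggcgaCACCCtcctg
Cxcr6: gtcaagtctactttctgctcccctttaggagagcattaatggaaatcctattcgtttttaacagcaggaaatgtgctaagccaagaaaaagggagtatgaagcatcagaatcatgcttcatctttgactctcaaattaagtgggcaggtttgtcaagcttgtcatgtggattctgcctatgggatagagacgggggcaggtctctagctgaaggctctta
S1pr5 and Itga1, one gene from each side, hold 2 and 2 matches, and Klf2 and Cxcr6 hold 0. Among 32851 promoter windows of the same 220 bases, 47.8% hold at least 1 match on either strand. TCACACC (a T-box core, in 2.96% of the windows) and TGTGGT (a RUNX core, in 12.7%) have 0 matches in these 4 on either strand. The Klf2 window is 71.4% G or C and the Cxcr6 window 43.6%. A match describes letters and is no measure of binding.

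Klf2 was found in every gate, Csf1r cells included, at 579 and 817 CPM. In flox its lowest levels were 213 (184 to 245) CPM in Cd163l1 T cells and 247 (228 to 268) in Pdcd1 CD8 T cells, and in knockout 121 (110 to 133) in Pdcd1 CD8 T cells and 311 (271 to 356) in Cd163l1 T cells. Klrg1 CD8 T cells stood at 738 and 1558, CD8 T cells with neither gene at 469 and 704, NK cells at 588 and 1082, Cd4 T cells at 483 and 659 and B cells at 1003 and 1046. The top of the order differed between the libraries: B cells were highest in flox and Klrg1 CD8 T cells in knockout.

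The sphingosine 1-phosphate receptors divided the lymphocytes. S1pr1 was highest in Cd4 T cells, at 401 and 348 CPM, and stood at 253 and 239 in B cells, 228 and 237 in CD8 T cells with neither gene, 14.2 and 26.8 in NK cells and 1.51 and 1.48 in Csf1r cells. S1pr5 stood at 120 (104 to 137) CPM in flox and 158 (142 to 176) in knockout NK cells, at 65.7 and 167 in Klrg1 CD8 T cells, at 3.3 and 2.01 in Pdcd1 CD8 T cells and at 6.2 and 5.84 in B cells. NK cells thus had S1pr5 with little S1pr1, and Klrg1 CD8 T cells had both, with S1pr1 at 131 and 184 CPM. Outside lymphocytes, S1pr5 stood at 54.3 and 68.8 CPM in Csf1r cells, with a UMI in 33.2% and 40.5% of them. Ccr7 was highest in B cells, at 308 and 331 CPM, followed by CD8 T cells with neither Klrg1 nor Pdcd1 at 112 and 156. It stood at 9.5 and 20.9 in Pdcd1 CD8 T cells and at 0.472 and 1.6 in Csf1r cells.

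Cxcr6 was highest in Cd163l1 T cells, at 967 (904 to 1033) CPM in flox and 1023 (948 to 1102) in knockout, with a UMI in 89% and 91.9% of these cells. Pdcd1 CD8 T cells came next among the gates described, at 258 and 541 CPM. B cells held 6.2 and 11.1 CPM and a Cxcr6 UMI in 0.949% and 2.38% of cells, which is the background for the T cell shares, at median depths of 6196 and 6468 UMIs per B cell and 8402 and 7864 per Cd163l1 T cell. Itgae was also highest in Cd163l1 T cells, at 85.6 and 124 CPM, against 18.6 and 27.9 in CD8 T cells. Itga1 stood at 30.9 and 234 CPM in Klrg1, 80.1 and 231 in Pdcd1 and 62.2 and 87 in other CD8 T cells, at 80.3 and 81.4 in NK cells and at 2.43 and 5.55 in B cells. Zfp683 was rare, at 1.94 (1.03 to 3.31) CPM in flox CD8 T cells from 13 UMIs and 8.55 (6.8 to 10.6) in knockout from 82.

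Cd69 did not follow the other residency genes over the gates. It stood at 209 and 152 CPM in Klrg1 CD8 T cells, 256 and 280 in Pdcd1 CD8 T cells, 304 and 318 in Cd4 T cells and 325 and 261 in Cd163l1 T cells. It was highest in B cells, at 380 and 421, which had little Cxcr6, Itga1 or Itgae, and low in NK cells, at 61.2 and 55. Free RNA in the flox library, read from 778499 barcodes of at most 100 UMIs, held Klf2 at 520 CPM, Cd69 at 178, Cxcr6 at 93.7, Ccr7 at 81.5 and S1pr1 at 78.1. Some flox levels lie below that free RNA, such as Klf2 in Pdcd1 CD8 T cells. With this profile subtracted at 5% of each group's UMIs, Klf2 in Klrg1 over Pdcd1 CD8 T cells had ratios of 3.21 and 16.1 in flox and knockout, beside 2.99 and 12.9 with it kept. The knockout file holds called cells, so its free RNA is not analysed here.

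**Figure D1:**
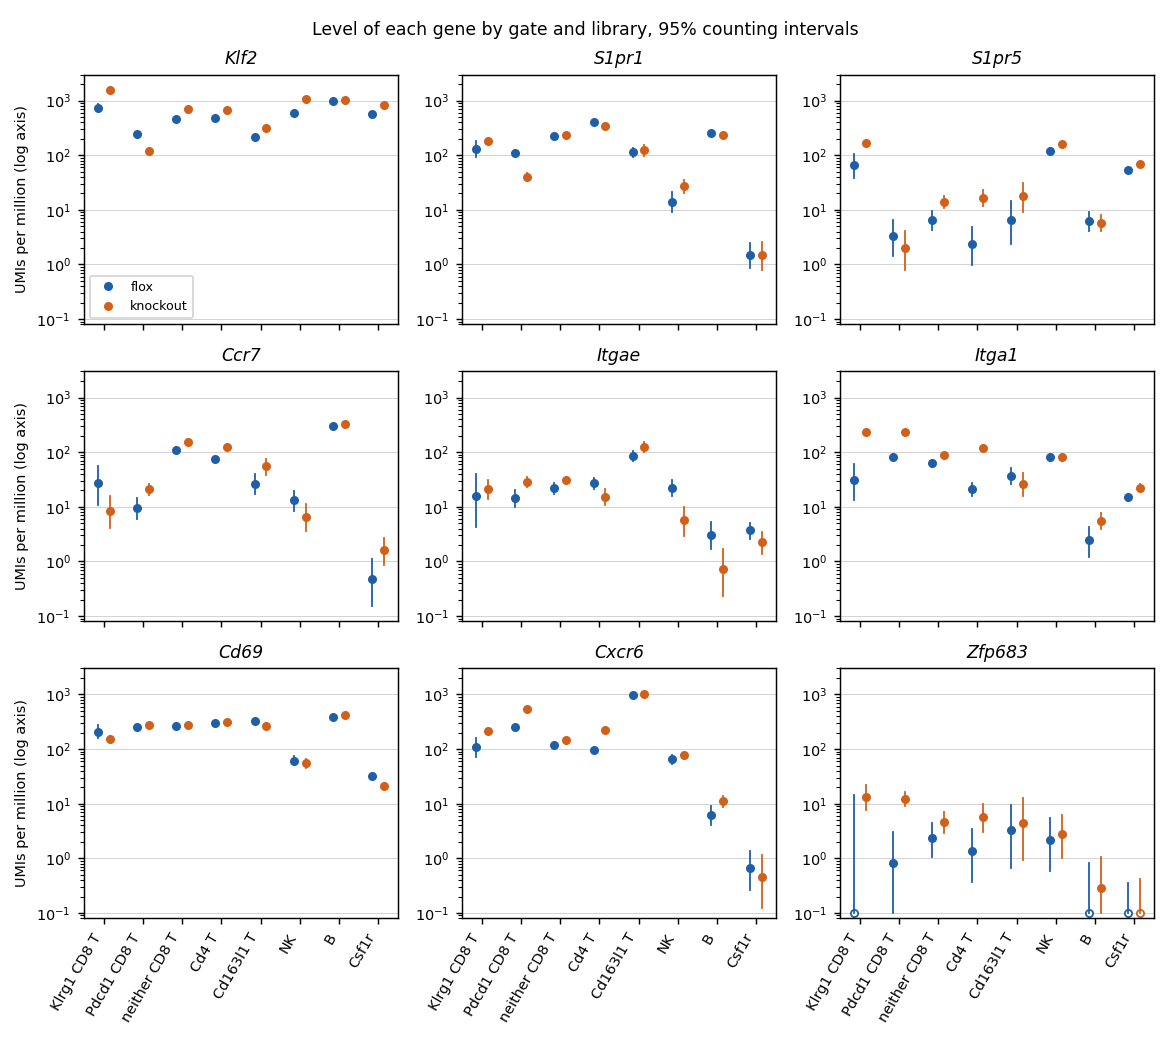
Levels of the 9 genes in CPM of summed UMIs (log axis) by gate, for flox (blue) and knockout (orange), with 95% counting intervals as lines and open circles at the foot for a count of 0. Cxcr6 peaks in Cd163l1 T cells at 967 and 1023 CPM, and Cd69 is highest in B cells in both libraries.

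For each member, the genes whose levels ran most alike over 7 gates and both libraries (14 points that share libraries and depth, 11053 genes) were listed by Pearson r. S1pr5 ran with Ywhaq, Rap1b and Gzma, the first at r = 0.959, and Gzma is a granzyme of NK and effector T cells. Cd69 ran with Ltb, the lymphotoxin beta chain, at r = 0.957, and with Supt3 and Ankrd28. Cxcr6 ran with Med10, Aak1 and Prdx6, Ccr7 with Sh3bp5, Cmah and Treml2, and Klf2 with Rasgrp2, Arhgef18 and Rasa3. S1pr1 ran with Pitpnm2, Pym1 and Gm26740, Itgae with Slc35f2, Prrt1 and Ssbp3, Itga1 with Tiprl, Hspa8 and Sugt1, and Zfp683 with Exosc7, Pigp and Zfp3.

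Whether members exclude each other in single cells was read from cells thinned to 2000 UMIs, so that depth was equal. The number of cells with both genes was divided by the number awaited if the genes were spread independently, which is the product of their shares times the cells. A pair had few shared cells when this ratio was under 0.67 in both libraries and at least 5 cells were awaited in each. Among CD8 T cells, 5 of 18 pairs that reached this number had few shared cells, against 0.7% of all gene pairs that did. The 5 were Klf2 with Cxcr6, Klf2 with Itga1, Ccr7 with Cxcr6, Ccr7 with Itga1 and S1pr1 with Itga1, each an egress gene with a residency gene.

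Klf2 and Cxcr6 were found together in 35 flox CD8 T cells where 71.6 were awaited (ratio 0.488) and in 71 knockout cells where 170 were awaited (0.418). Put as shares, 12.7% (9.03 to 17.3) of flox cells with a Klf2 UMI had Cxcr6 against 35.5% (30.7 to 40.5) of cells without, and in knockout 15.4% (12.2 to 19) against 53.9% (49.7 to 58). For Klf2 and Itga1 the cells with both, in flox and then knockout, were 14 against 29.4 and 58 against 103 awaited. The pairs with Ccr7 had the lowest ratios of the 5. Ccr7 and Cxcr6 met in 2 against 16.2 and 6 against 41.6 awaited cells, and Ccr7 and Itga1 in 1 against 6.63 and 2 against 25.3. S1pr1 and Itga1 met in 8 against 16.8 and 23 against 45.2, while S1pr1 and Cxcr6 gave ratios of 0.709 and 0.404 and so missed the limit in flox. Without thinning the ratios were closer to 1, 0.806 and 0.692 for Klf2 with Cxcr6 and 0.621 and 0.411 for Ccr7 with Cxcr6, so that of the 5 pairs only the 2 with Ccr7 stayed under the limit.

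Since thinning is a random draw, the pairs were drawn 20 times. Ccr7 with Cxcr6 had few shared cells in 20 of 20 draws, Klf2 with Itga1 in 19, Klf2 with Cxcr6 in 18, Ccr7 with Itga1 in 15, S1pr1 with Itga1 in 15 and S1pr1 with Cxcr6 in 10. The first 3 pairs rest least on the draw.

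Egress genes tended to share cells in the CD8 T gate as a whole. Among CD8 T cells, 4 pairs had more shared cells than awaited beyond the inverse of that limit in both libraries, against 0.207% of gene pairs. They were Klf2 with S1pr1 (ratios 1.51 and 1.56), Klf2 with S1pr5 (1.9 and 2.03), Klf2 with Ccr7 (1.75 and 1.67) and S1pr1 with Ccr7 (1.57 and 2.05). The residency genes Itga1 and Cxcr6 gave 1.46 and 1.69. Outside the whole gate, 0 pairs passed among 8 tested in Pdcd1 CD8 T cells, 10 in Cd4 T cells and 6 in B cells. The same held for 5 tested in NK cells and 5 in Cd163l1 T cells. In cells with neither Klrg1 nor Pdcd1, 1 of 16 passed, and it was no egress pair. Not all members kept to their side. S1pr5 and Ccr7, both egress genes, met without thinning in 4 against 6.89 and 11 against 31.8 awaited CD8 T cells in flox and knockout. Ccr7 and Itgae, from opposite sides, met more often than awaited without thinning, in 30 against 14.9 and 45 against 26.1. Depth differs between cells without thinning, and its part in this excess was not tested. Cd69 met Klf2 and S1pr1 about as often as awaited, with ratios of 1.16 and 0.976 and of 1.06 and 0.889, and likewise Itga1 (0.923 and 1.09) and Cxcr6 (0.809 and 1.05). The libraries differed in the pair of Cd69 with Itgae, at 0.525 and 1.04 and in that with S1pr5, at 1.06 and 0.509 with under 5 cells awaited in flox.

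The same pairs were followed into the subsets. In cells with neither Klrg1 nor Pdcd1, 4 of 16 pairs had few shared cells (0.782% of gene pairs), namely Klf2 with Itga1, Klf2 with Cxcr6, Ccr7 with Itga1 and Ccr7 with Cxcr6. There 1 pair had many (0.237% of gene pairs), Itga1 with Cxcr6, which met in 9 against 5.92 and 39 against 14.6 awaited cells. In Pdcd1 CD8 T cells 1 of 8 pairs had few (0.65% of gene pairs), Klf2 with Cxcr6 at ratios of 0.471 and 0.531. In Klrg1 CD8 T cells no pair reached 5 awaited cells in both libraries. Klf2 and Itga1 met there, without thinning, in 2 against 2.36 and 77 against 81.4 awaited cells, and Klf2 and Cxcr6 in 10 against 11 and 66 against 70.1. In all CD8 T cells unthinned ratios lay closer to 1 than thinned ones. The Klrg1 values therefore cannot be set beside the thinned ratios of the other subsets. Whether the subsets differ in this was not tested.

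Cd4 T cells had 2 of 10 pairs with few shared cells (0.731% of gene pairs). Klf2 and Cxcr6 met in 9 against 19.9 and 16 against 35.1 awaited cells, with few in 17 of 20 draws, and Ccr7 and Cxcr6 in 2 against 5.26 and 0 against 10.8, with few in 9. S1pr1 with Cxcr6 had few in 17 of the draws, although its ratios in the draw reported here were 0.625 and 0.711. NK cells had 3 of 5 such pairs (0.679% of gene pairs). Klf2 and Cxcr6 met in 1 against 9.62 and 1 against 11.8 awaited NK cells, with few in 20 of 20 draws. Klf2 and Itga1 met in 5 against 12 and 10 against 20.7, with few in 19, and S1pr5 and Itga1 in 0 against 5 and 4 against 6.41, with few in 8. S1pr5 and Cxcr6 stayed under 5 awaited cells when thinned, and without thinning met in 2 against 13.3 and 1 against 16.3 NK cells. The residency pair Itga1 and Cxcr6, also without thinning, met in 22 against 4.98 and 22 against 4.6, under the 5 awaited cells set for a pair. The part of depth in this excess was not tested.

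B cells and Cd163l1 T cells had no such pair. B cells had 0 of 6 (0.725% of gene pairs), with 1.06 and 1.04 for Klf2 with S1pr1 and 1.1 and 1.1 for Ccr7 with Cd69. Cd163l1 T cells had 0 of 5 (0.421% of gene pairs), with 0.732 and 0.766 for Klf2 with Cxcr6.

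**Figure D2:**
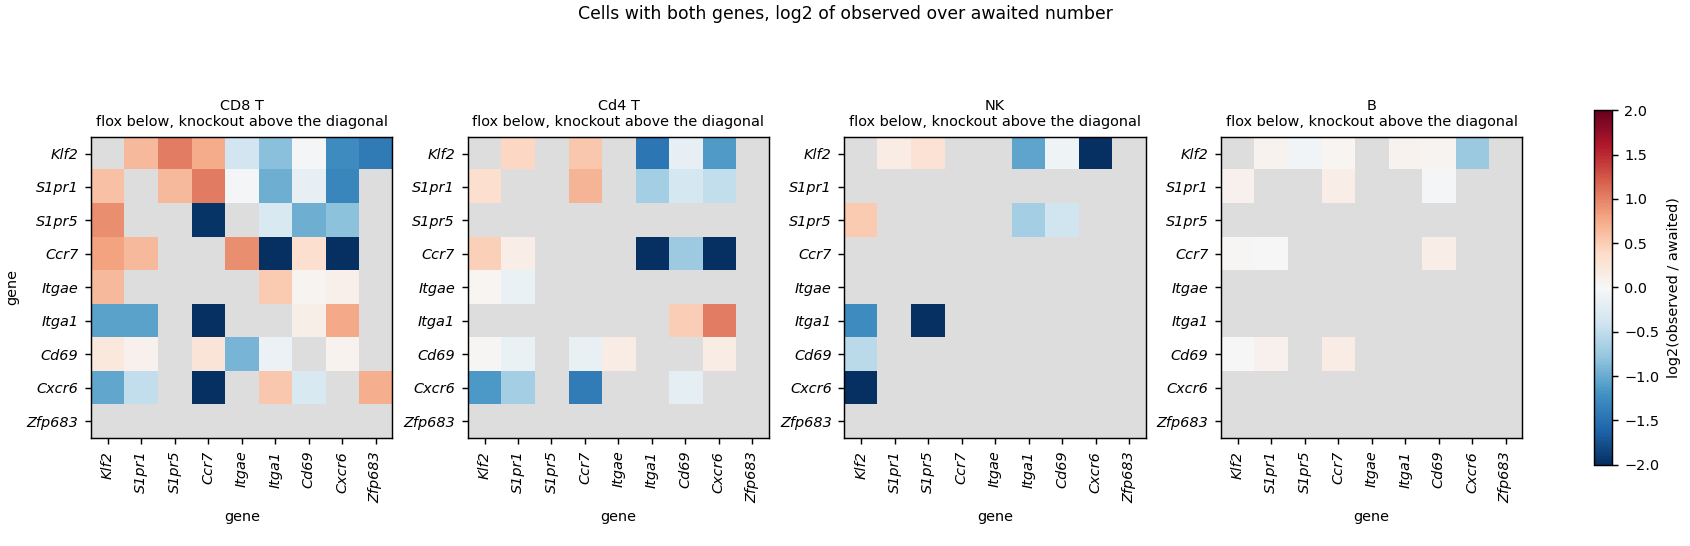
Observed over awaited number of cells with both genes (log2 colour scale, blue for fewer and red for more) for each pair of genes in 4 gates, with flox below and knockout above the diagonal and grey where under 5 cells were awaited. Klf2 and Ccr7 are blue with Itga1 and Cxcr6 in CD8 T cells, and the B cell panel is pale for the pairs of Klf2, S1pr1, Ccr7 and Cd69.

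The Klf2 count of a cell went with these shares. Among thinned CD8 T cells, Cxcr6 was found in 35.5% of flox cells with 0 Klf2 UMIs, 13.1% with 1, 12.3% with 2 and 12.5% with 3 or more, and in knockout in 53.9%, 17.3%, 14.8% and 14.4%. The step lay between 0 and 1 Klf2 UMI. S1pr1 was found over the same bins in 15.2%, 29.5%, 36.9% and 43.2% of flox and 10.7%, 20.9%, 31.3% and 36.1% of knockout cells. S1pr5 was found in 0.771% and 6.82% of cells in the lowest and highest flox bins and in 1.21% and 22.1% in knockout. Itga1 in knockout was found in 30.2% of cells with 0 Klf2 UMIs, 6.09% with 2 and 14.9% (10.4 to 20.5) with 3 or more. Cxcr6 and Klf2 parted in NK cells as well. Cxcr6 was found in 18.1% of flox and 21.1% of knockout NK cells with 0 Klf2 UMIs, and in 0 of 47 and 0 of 104 with 3 or more, for which the exact intervals reach 7.55% and 3.48%. S1pr1 in B cells was found in 30.9% and 32.9% of cells with 0 Klf2 UMIs and in 41.6% and 40.1% with 3 or more.

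**Figure D3:**
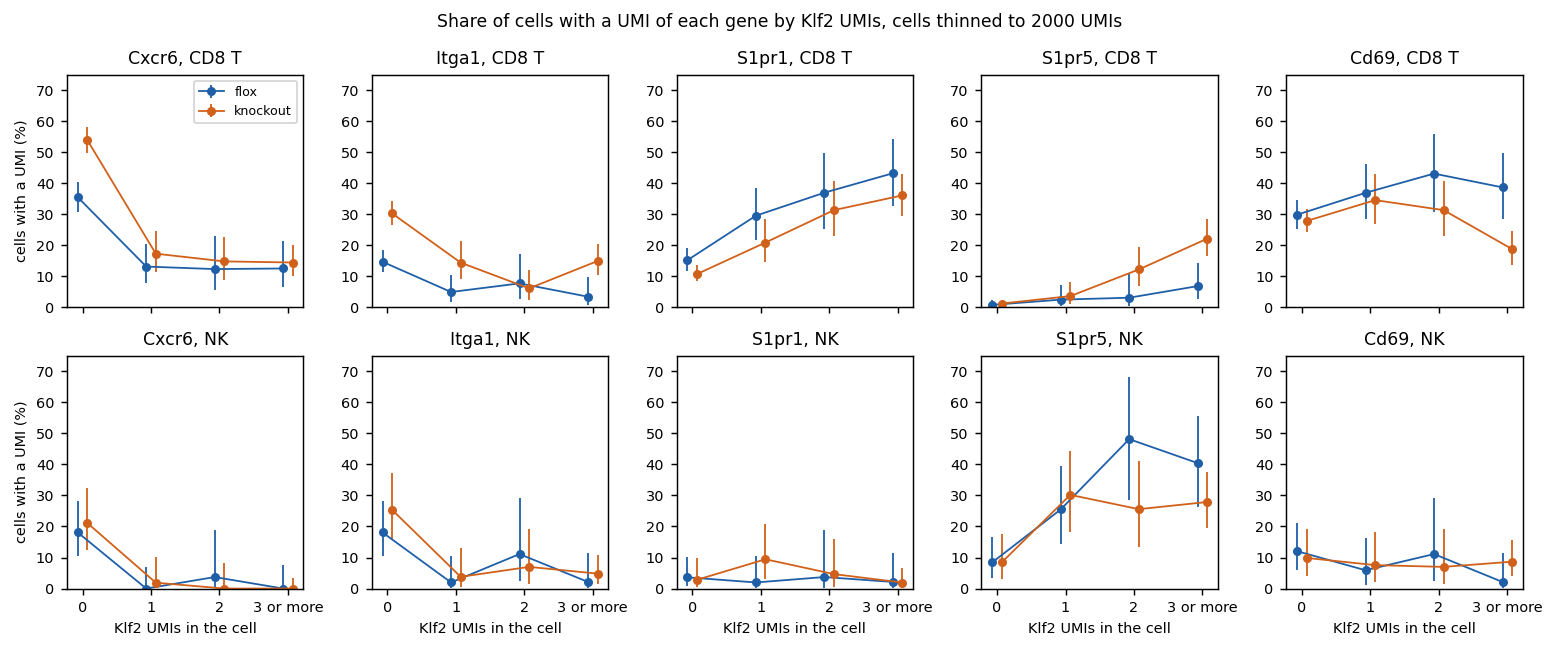
Share of cells with a UMI of 5 genes (percent, with 95% exact intervals) against the Klf2 UMIs of the cell, in CD8 T cells and NK cells thinned to 2000 UMIs, for flox (blue) and knockout (orange). In CD8 T cells Cxcr6 drops between 0 and 1 Klf2 UMI while S1pr1 climbs, and S1pr5 reaches 22.1% in knockout.

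The split by Klrg1 and Pdcd1 separated the members. For Klrg1 over Pdcd1 CD8 T cells, 3 of the 8 members tested in both libraries were called alike in both, against 0.698% of genes. Klf2 was higher by 2.99-fold (2.53 to 3.52) in flox and 12.9-fold (11.6 to 14.4) in knockout, and S1pr5 by 19.9-fold (8.14 to 53.3) and 83.1-fold (39.6 to 209). Cxcr6 was lower, at ratios of 0.419 and 0.398. S1pr1 (ratios 1.19 and 4.51) and Cd69 (0.814 and 0.54) were called in knockout alone, where 6.1% of genes were called against 1.65% in flox, whose Klrg1 subset holds 28 cells. Itga1 was not called in either library, at 0.386 and 1.01.

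Among 18 companion genes of circulation and egress, 17 were tested in both libraries, 5 were higher alike in Klrg1 cells and 0 lower. They include Zeb2, a transcription factor of terminal effector cells (7.68-fold and 7.65-fold), Cx3cr1, the fractalkine receptor of circulating effector cells (3.57-fold and 19-fold), As3mt and Lef1. Among 24 residency companions, 23 were tested and 3 were lower alike (Ahr and Cdh1, with 0 UMIs in flox Klrg1 cells, and Xcl1), while 1, the granzyme Gzmb, was higher by 1.96-fold and 7.07-fold. Xcl1, a chemokine of NK and T cells, had ratios of 0.178 and 0.0785. The median log2 ratio in flox and knockout was 0.51 and 0.57 for the circulation companions and -0.29 and -0.44 for the residency companions, beside 0.02 and 0.09 over all genes tested.

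Against CD8 T cells with neither gene, Klrg1 cells had 2 of 8 members called alike, with 1.24% of genes called. S1pr5 was higher (ratios 10.1 and 11.9) and Ccr7 lower (0.242 and 0.0539). Of 18 circulation companions 2 were higher, Cx3cr1 and Zeb2, and 3 lower, Lef1 (0.481 and 0.32), Il7r (0.315 and 0.271) and Dapl1. Of 23 residency companions 2 were higher, Gzmb (6.02-fold and 6.23-fold) and Bhlhe40 (2.4-fold and 3.09-fold), and 1 lower, Xcl1.

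For Pdcd1 cells over CD8 T cells with neither gene, 4 of the 8 members tested in both were called alike, against 2.73% of genes. Cxcr6 was higher (ratios 2.19 and 3.74), and Klf2 (0.527 and 0.172), S1pr1 (0.486 and 0.172) and Ccr7 (0.085 and 0.134) were lower. Of 18 circulation companions 5 were lower and 0 higher, among them Il7r, the interleukin 7 receptor (0.407 and 0.284), and Lef1 (0.223 and 0.12). Of 23 residency companions tested, 7 were higher and 0 lower, among them Rgs1, a brake on chemokine receptor signals (2.49-fold and 3.21-fold), and Bhlhe40 (2.97-fold and 2.95-fold).

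To read Klf2 and Cd69 against the other 7 members, each cell was placed on the egress side (at least 1 UMI of S1pr1, S1pr5 or Ccr7 and none of Itgae, Itga1, Cxcr6 or Zfp683), on the residency side (the reverse), as mixed (both kinds), or on no side (neither kind). Of CD8 T cells the egress side held 27.5% and 21.6%, the residency side 29.9% and 42.2%, mixed cells 33.6% and 30.4% and cells on no side 9.1% and 5.8% in flox and knockout. At 2000 UMIs per cell the mixed share was 7.08% and 8.26%, and the share on no side 42.2% and 29.9%, so both shares move with depth. Cd163l1 T cells were mostly on the residency side, at 65% and 71.6%, and NK cells more often on the egress side, at 49.3% and 55.8%, than on the residency side, at 15.2% and 13.8%, with 27.5% and 22.1% on no side.

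Klf2 was called lower on the residency side in all 3 gates compared (CD8 T, Cd4 T and NK cells) and in both libraries. Its ratio in CD8 T cells was 0.202 (0.174 to 0.234) in flox and 0.101 (0.0905 to 0.113) in knockout. In Cd4 T cells the ratios were 0.368 and 0.157, and in NK cells 0.178 and 0.137. Cd69 was not called in CD8 T cells, with intervals from 1.1 to 1.42 in flox and from 0.877 to 1.07 in knockout, nor in Cd4 T cells (1.47 and 1.37). In NK cells Cd69 was called in flox, at 2.56 (1.55 to 4.21), and not in knockout, at 1.03, where 6.79% and 6.07% of genes were called. Genes called alike in both libraries made up 3% of those tested in CD8 T cells, 2.43% in Cd4 T cells and 2.92% in NK cells. With the sides set on UMIs thinned to 2000 per cell, Klf2 stayed called lower in all 3 gates and both libraries, at 0.283 and 0.157 in CD8 T, 0.336 and 0.126 in Cd4 T and 0.112 and 0.182 in NK cells. Cd69 was then at 0.89 and 0.996 in CD8 T cells and at 2.49 and 2.32 in NK cells, called in neither library. Leaving out the cell with the most UMIs of the gene on each side took Klf2 in knockout Cd4 T cells from 0.157 to 0.0982.

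The companion lists divided with the sides. For CD8 T cells 9 of 18 circulation companions were lower on the residency side and 0 higher, and 10 of 23 residency companions were higher and 0 lower. Lef1, a transcription factor of naive and memory cells, had ratios of 0.241 and 0.0971, and Il7r 0.169 and 0.192. Cdh1 (E-cadherin, 45.1 against 2.64 CPM in flox), Xcl1 (349 against 78.2 in flox and 531 against 16.4 in knockout), Litaf and Chn2 were among those higher. The median log2 ratio in flox and knockout was 0.84 and 1.52 for the residency companions, beside 0.13 and 0.19 over all genes. The chemokine receptor Ccr2 (3.12-fold and 2.89-fold) was also higher. Cd4 T cells had 6 of 21 residency companions higher and 0 lower, led by Xcl1. Of 16 circulation companions 4 were lower and 2 higher, Ly6c2 and Tbx21, both known from effector cells. Other genes moved with the sides. The summed level of 6 NK markers on the residency against the egress side was 1093 and 1067 against 349 and 306 CPM in flox and knockout Cd4 T cells, and 2858 and 2597 against 1757 and 1331 in CD8 T cells. Of 8 type I interferon-induced genes tested in both libraries 3 were higher alike on the residency side of Cd4 T cells, Isg15 (3.37-fold and 2.12-fold), Ifit1 (4.89-fold and 6.28-fold) and Ifit3 (3.63-fold and 11.2-fold), and 0 lower. Their part in the result was not tested.

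NK cells on the residency side differed in other genes as well. Inpp4b, a lipid phosphatase, stood at 1323 CPM against 6.84 in flox (194-fold, 88.1 to 530) and 1372 against 10.9 in knockout (126-fold, 73.2 to 239). Il7r was higher by 35.1-fold and 14.3-fold although it stands in the circulation list, and the chemokine receptor Cxcr3 by 9.77-fold and 10.9-fold. Cx3cr1 (0.0807 and 0.139) and Zeb2 (0.157 and 0.15) were lower. Of 20 residency companions 8 were higher and 0 lower, and of 15 circulation companions 6 were lower and 2 higher. The residency side holds 32 and 38 NK cells. The summed level of 6 NK markers was 5718 and 5692 CPM there against 9224 and 9182 on the egress side, and that of 5 B cell markers 2623 and 1428 against 53.6 and 1014, and their part in the result was not tested.

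Between the genotypes, members of both sides were higher in knockout CD8 T cells. Of 9 members 4 were called, with 2.42% of genes called. S1pr5 was higher by 3.52-fold (2.64 to 4.77), Zfp683 by 4.41-fold (2.44 to 8.64), Itga1 by 2.22-fold (2 to 2.47) and Cxcr6 by 1.76-fold (1.65 to 1.89). Klf2 stood at 398 and 599 CPM, and the interval of its ratio, 1.44 to 1.58, is not wholly beyond the limit, while Cd69 had a ratio of 0.99 (0.931 to 1.05). In female cells the ratios were 3.12 for S1pr5, 1.84 for Itga1 and 1.36 for Cxcr6, and in male cells 4.19, 1.89 and 2.39.

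Of the companion lists, 2 of 18 circulation genes were higher and 1 lower, 2 of 24 residency genes were higher and 0 lower, 1 of 9 other chemokine receptors was higher and 0 lower, and of 2 genes of ligands and sphingosine phosphate handling 0 were higher or lower. Of 12 immediate early and dissociation genes 3 were higher, Nr4a1 (1.66-fold), Hspa1a (3.61-fold) and Hspa1b (2.39-fold), and 0 lower, with a median log2 ratio of 0.31 beside 0.04 over all genes. Of 11 type I interferon-induced genes 10 were lower and 0 higher. Summed monocyte and macrophage markers stood at 187 and 96.8 CPM, B cell markers at 347 and 450 and regulatory T cell markers at 287 and 330. The part of these genes in the member ratios was not tested.

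The subsets did not carry these differences alike. In CD8 T cells with neither Klrg1 nor Pdcd1, 0 of 9 members were called, against 1.72% of genes. Klrg1 cells were 0.819% of all flox and 4.29% of all knockout cells. They made up 4.18% of flox and 16.3% of knockout CD8 T cells and held 29.8% and 69% of the CD8 T UMIs of S1pr5. Within Klrg1 cells 3 of 7 members were called, each higher in knockout, against 2.91% of genes called in either direction: Klf2 by 2.11-fold (1.82 to 2.46), S1pr5 by 2.54-fold (1.54 to 4.44) and Itga1 by 7.57-fold (3.79 to 17.7). By sex, Klf2 gave 2.16 and 3.23 in female and male Klrg1 cells, of which flox holds 20 and 6. The Itga1 ratio rests on 8 flox UMIs in 3 cells, 5 of them in 1 cell. Summed B cell markers stood at 750 and 241 CPM in flox and knockout (with UMIs of 3 of 5 and 5 of 5 markers). Monocyte and macrophage markers stood at 642 and 131 (4 of 5 and 5 of 5) and regulatory T cell markers at 317 and 56.4 (4 of 4 and 3 of 4). NK markers stood at 2675 and 3395, Gzma at 2142 and 4638, the NK receptor gene Klrb1c at 15.5 and 90.9 and Cd40lg at 0 and 89.2. Of 9 type I interferon-induced genes 6 were lower and 0 higher, at a median log2 ratio of -2.56. Of 12 immediate early and dissociation genes 3 were higher and 3 lower. The part of these genes in the result was not tested.

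Within Pdcd1 CD8 T cells 5 of 8 members were called, against 3.16% of genes, and called members of the 2 sides went opposite ways. The sides did not move as wholes. The egress gene Ccr7 was higher in knockout, though not called, at 9.5 and 20.9 CPM in flox and knockout. Cd69, a residency gene, was not called. Itga1 was higher in knockout by 2.88-fold (2.46 to 3.38), Cxcr6 by 2.1-fold (1.91 to 2.3) and Zfp683 by 14.9-fold (3.88 to 127) from 2 and 43 UMIs, and Klf2 at 0.489 (0.431 to 0.555) and S1pr1 at 0.367 (0.298 to 0.452) were lower. The share of these cells on the residency side was 44.3% and 77% in flox and knockout. It was 49.5% and 76% in female cells and 25.8% and 69.2% in male cells. S1pr1 was lower in cells of both sexes (0.419 female, 0.384 male) and Cxcr6 higher (1.79 and 3.12). Klf2 stood at 0.355 (0.271 to 0.469) in male cells, of which flox holds 31, and at 0.888 (0.74 to 1.06) in female cells. Of 12 immediate early and dissociation genes tested in this subset 4 were higher (Hspa1a, Hspa1b, Nr4a1 and Dusp1) and 0 lower, with a median log2 ratio of 0.69 beside 0.03 over all genes. Summed regulatory T cell markers stood at 410 and 661 CPM in flox and knockout and monocyte and macrophage markers at 201 and 87.7. Of 10 type I interferon-induced genes 9 were lower and 0 higher, at a median log2 ratio of -1.64. Circulation companions numbered 1 higher and 3 lower of 18, and residency companions 3 higher and 1 lower of 24. The part of any of these groups of genes in the result was not tested.

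Of 8 members tested in Cd4 T cells 3 were called, higher in knockout, with 2.9% of genes called. Itga1 stood at 20.9 and 120 CPM (5.73-fold, 4.33 to 7.7), Cxcr6 at 95 and 225 (2.37-fold, 2.04 to 2.75) and S1pr5 at 2.4 and 16.8 (6.98-fold, 3.08 to 18.5, from 7 and 38 UMIs). By sex Itga1 gave 2.9 in female and 11.3 in male cells and Cxcr6 1.61 and 4.98. The residency side held 12.8% and 24.5% of flox and knockout Cd4 T cells, 13% and 18.5% of female cells and 12.3% and 35.3% of male cells. Type I interferon-induced genes were lower in knockout, 9 of 11 in Cd4 T cells and 10 of 11 in CD8 T cells, at median log2 ratios of -1.60 and -1.86, while summed regulatory T cell markers stood at 1389 and 696 CPM in flox and knockout Cd4 T cells and monocyte and macrophage markers at 99.4 and 209, and their part in the member ratios was not tested.

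Of 8 members tested in NK cells 2 were called, with 1.1% of genes called. Klf2 stood at 588 and 1082 CPM (1.84-fold, 1.71 to 1.98), and gave 1.96 in female and 2.62 in male cells. Itgae was lower, at 22.4 and 5.64 CPM from 41 and 12 UMIs (ratio 0.252). A UMI of it was found in 4.74% and 3.99% of NK cells, 10 and 11 cells, and 1 flox cell held 11 of the flox UMIs. The intervals of the 2 shares overlap. Without the highest cell of each library the ratio was 0.284. Summed B cell markers stood at 499 and 977 CPM in flox and knockout NK cells. Cd163l1 T cells had 0 of 7 members called (0.948% of genes), and Cxcr6 gave 1.06 (0.956 to 1.17). B cells had 0 of 7 called (2.39% of genes), with 1.04 for Klf2 and 1.08 for Ccr7. On the egress side the knockout over flox ratio of Klf2 was 1.67 (1.56 to 1.79) in CD8 T cells, 1.67 (1.52 to 1.82) in NK cells and 1.47 (1.35 to 1.61), not called, in Cd4 T cells. On the residency side it was 0.835 (0.705 to 0.992), 1.28 (0.851 to 1.93) and 0.627 (0.449 to 0.872), called in none of the 3. The difference between the sides was not tested.

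**Figure D4:**
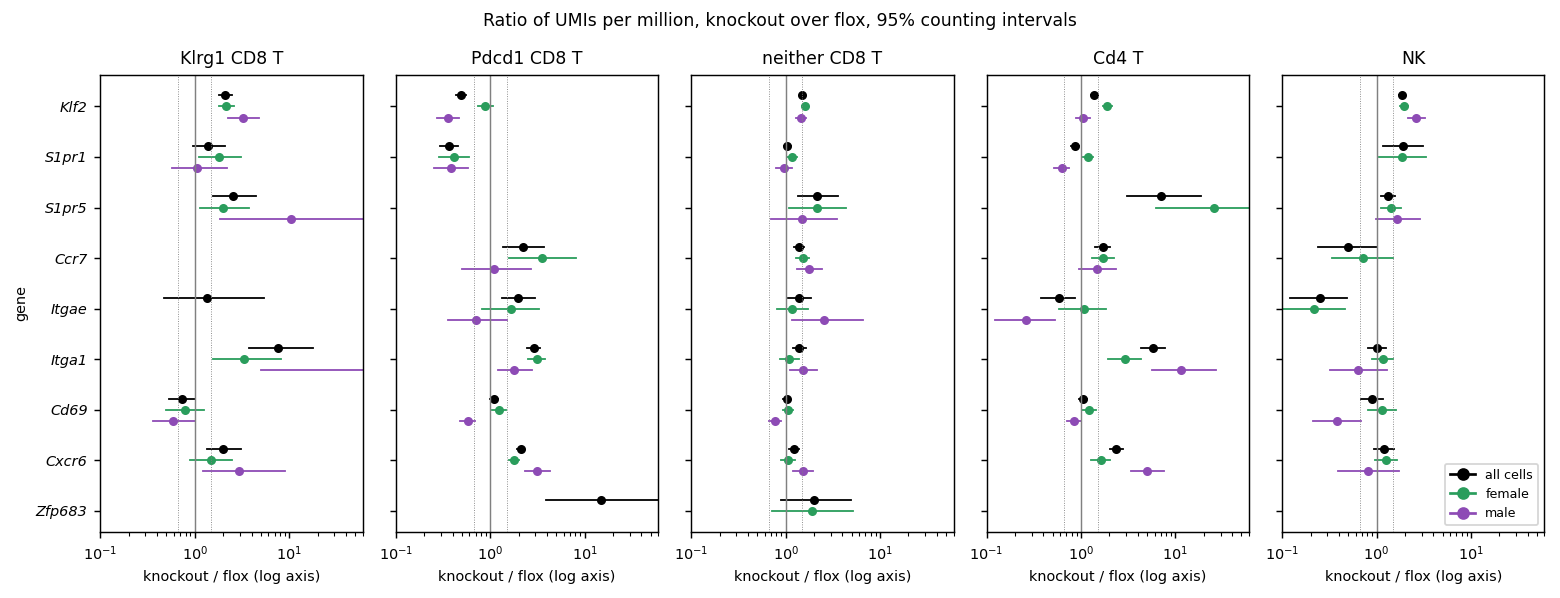
Ratio of CPM, knockout over flox (log axis), for each gene and gate, for all cells (black), female cells (green) and male cells (purple), with 95% counting intervals and dotted lines at 1.5-fold in each direction. In Pdcd1 CD8 T cells Klf2 and S1pr1 lie left of 1 and Itga1 and Cxcr6 right of it in all cells.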

How the data were processed

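The authors deposited raw UMI counts for each library. Reads were counted on mm10 with Cell Ranger per the submitters' processing notes, version 4 for flox and 7.0.1 for knockout per the file headers. The flox file holds 1002803 barcodes, free RNA included, and the knockout file 4096 called barcodes only, and the same cell filter was applied to both. The members and lists were chosen with earlier results of these data known. Levels have exact Poisson, ratios conditional binomial and shares Clopper-Pearson intervals at 95%, which treat UMIs or cells as independent. Each cell with at least 2000 UMIs was thinned once to that number. A first thinning, drawn anew in each gate, had been seen before this one replaced it, and pairs near the limit differed between them, so 20 draws are given. Cells with Xist and no Y-linked UMIs were called female and the reverse male. Scrublet, run through Scanpy 1.11.5, marked 24 (0.702%) flox and 56 (1.41%) knockout cells as doublets, which were kept and removed in an alternative. Named list genes were up to 4 per list and contrast with the largest called ratios, and the 3 genes most like each member were taken from log2 CPM with 10 added. Other list genes named were chosen after their values were seen. Some list genes are not reported here by name. Calls and pair ratios were tested on simulated data. Promoters came from RefSeq by symbol. Python 3.11.15, numpy 2.4.6, scipy 1.17.1 and pandas 2.3.3 were used.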

Additional observations from a re-analysis of the deposited data

Results flagged for a closer look

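In Pdcd1 CD8 T cells, Cd69 was higher in knockout in female cells (1.24, 1.05 to 1.46) and lower in male cells (0.580, 0.484 to 0.699). In Cd4 T cells, S1pr1 was higher in female knockout cells (1.18, 1.04 to 1.35) and lower in male ones (0.621, 0.514 to 0.751). In Klrg1 CD8 T cells Klf2 was higher in knockout (2.11, 1.82 to 2.46) and in Pdcd1 CD8 T cells lower (0.489, 0.431 to 0.555). In each case the counting intervals of the 2 groups of cells lay on opposite sides of 1. With 1 library per genotype, none of these differences was tested.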

How the results depend on the processing

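No paired analysis was possible because each group is 1 library. Of 24 called gene ratios, 0 changed direction in 293 recalculations. Some of the 293 changed only the rule for a call, either its limit or its minimum of UMIs per gene. Such a change leaves the ratio itself as it was, so it could not change direction there. These 24 are knockout over flox in CD8 T, Cd4 T and NK cells, Klrg1 over Pdcd1 cells, and Klf2 and Cd69 by side. Genotype ratios within Klrg1 and Pdcd1 cells and ratios to cells with neither gene were not among them. Among all recalculated gene ratios, 654 stayed within their reported intervals and 78 left them, 31 in male and 23 in female cells alone. The 654 include 61 under another limit for a call and 61 without the UMI minimum, which could not leave their intervals. Of the counts, 100 kept within 1.5 times their reported value and 14 did not. For pairs this compares their number and not which pairs they are. Without thinning, 4 CD8 T pairs had few shared cells, and Klf2 with Zfp683 and S1pr5 with Ccr7 were not among the reported 5. In Cd4 T cells Klf2 with Cxcr6 was then lost and Ccr7 with Itga1 gained. In male cells alone, which are few in flox, 1 member was called in NK cells, 1 in B cells and 0 alike for Klrg1 over Pdcd1, and pairs with few shared cells numbered 1 in CD8 T, 0 in Cd4 T and 0 in NK cells; Zfp683 in CD8 T and Cxcr6 in B cells had 0 flox UMIs and no ratio. Such pairs in Cd4 T cells numbered 1 in female cells (S1pr1 with Cxcr6) and 1 without cells in more than 1 gate. Thinned to 1000 UMIs, pairs numbered 3 of 13 tested in CD8 T cells and 1 of 2 in NK cells (Klf2 with Cxcr6). The 3 were Klf2 with Itga1 and S1pr1 with Itga1 and with Cxcr6, without Klf2 with Cxcr6 or either pair of Ccr7. Thinned to 4000 UMIs they numbered 8 of 24 tested in CD8 T cells, the reported 5 among them. In Cd4 T cells Klf2 with Cxcr6 was then lost and S1pr1 with Cxcr6 gained. Under a limit nearer to 1 for a call, 5 members were called in Cd4 T cells. With the flox free RNA profile subtracted from both libraries, 2 were called in B cells. Without Klrg1 or Pdcd1 cells 0 were called in CD8 T cells. For the alternatives, shares over all genes or gene pairs were not counted, so these numbers have no background beside them. Some choices were made after seeing the data. Thinned anew in each gate, as first drawn, 4 CD8 T, 2 Cd4 T and 2 NK pairs had few shared cells. The 2 of Cd4 T cells were S1pr1 with Cxcr6 and Ccr7 with Cd69, neither of them reported above, and S1pr1 with Itga1 and Ccr7 with Itga1 were lost in CD8 T cells and S1pr5 with Itga1 in NK cells. Over 20 draws the numbers ran from 4 to 6, 1 to 5 and 2 to 4. Summed within Klrg1 and Pdcd1 subsets the CD8 T pairs numbered 5, the same pairs. With sides set on thinned UMIs, 6 of 12 side ratios of Klf2 and Cd69 left their reported intervals, with values given in the report, and the flox NK call of Cd69 was lost. For these alternatives the cause was not tested.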
